A study of Mus musculus with 4 samples.

Results

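The 4 interleukin genes Il6, Il10, Il12b and Il27 were examined for peaks of histone H3 trimethylated on lysine 4 (H3K4me3), the mark of active promoters, in mouse macrophages with and without lipopolysaccharide (LPS). A peak counted as a member when it overlapped, by 1 bp or more, a window of the mm9 genome set around its gene. The windows were 30335000 to 30350000 on chromosome 5 for Il6, 132912000 to 132926000 on chromosome 1 for Il10, 44210000 to 44232000 on chromosome 11 for Il12b and 133730000 to 133745000 on chromosome 7 for Il27. The rule took 17 peaks of the 64314 in all lists, of which 2 lay at Il6, 4 at Il10, 2 at Il12b and 9 at Il27. The members were selected on their peak calls: the genes were put together with the presence, width and score of peaks in these windows already known. These values are therefore descriptions and were not tested.

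The macrophages were primary cells grown from bone marrow to day 7, from mice whose background was 94% C57BL/6 and 6% 129/Ola. Cells were Wbp7+/- or Wbp7-/-, and each genotype was either left without treatment or given LPS at 10 ug/ml for 4 h. Wbp7, also known as Kmt2b, encodes a methyltransferase of lysine 4 of histone H3. The sample titles write MLL2 and the source names MLL4 for the targeted gene, and the genotype label Wbp7 is followed here. The comparison cells were heterozygous, so every group carried the disrupted Wbp7 allele, and no wild-type group was used here. There was 1 library in each of the 4 groups, so the differences below rest on single libraries, with no replicates and no p-value. The sources used here do not say how the Wbp7 allele was disrupted or how many mice gave a library. The track line of the LPS-treated Wbp7+/- file names 24 h, whereas the sample's labels give 4 h, so the time of that library is uncertain. Results after LPS are therefore also given for Wbp7-/- cells alone, whose track line and labels both give 4 h. The loci of macrophage markers and of Wbp7 itself were not analysed here.

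Macrophages sense LPS through the receptor Tlr4, which activates NF-kB and other factors that switch on cytokine genes. H3K4me3 sits around the start sites of genes that are active or ready for activity, and it often spreads further at genes that are strongly transcribed. Il6 encodes a cytokine of fever and the acute phase response. Il12b encodes the subunit that the cytokines IL-12 and IL-23 have in common, and both steer T cells. The Il27 product pairs with that of Ebi3 to form a cytokine that acts on T cells. Il10 encodes a cytokine that restrains inflammatory activation of macrophages.

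The upstream sequences of Il6 and Il12b, the 2 of the 4 genes matched in the sequence table used, are shown beside the peaks that both genes had after LPS only. They are the 250 bases before the RefSeq start, from build GRCm38.p6, plus strand, at chr5:30012864-30013113 for Il6 and chr11:44399813-44400062 for Il12b. These positions belong to another build than the mm9 peak positions, and the start sites were not placed within the peaks. Capitals mark matches on either strand to the NF-kB motif, C/EBP (TTGCNNAA), AP-1 (TGANTCA), the cAMP response element core (ACGTCA) and the TATA box (TATAA).

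Il6: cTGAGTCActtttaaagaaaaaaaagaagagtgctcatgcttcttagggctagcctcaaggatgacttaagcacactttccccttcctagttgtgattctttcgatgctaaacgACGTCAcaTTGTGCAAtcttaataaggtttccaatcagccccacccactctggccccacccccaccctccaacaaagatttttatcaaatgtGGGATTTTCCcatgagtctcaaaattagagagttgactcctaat

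Il12b: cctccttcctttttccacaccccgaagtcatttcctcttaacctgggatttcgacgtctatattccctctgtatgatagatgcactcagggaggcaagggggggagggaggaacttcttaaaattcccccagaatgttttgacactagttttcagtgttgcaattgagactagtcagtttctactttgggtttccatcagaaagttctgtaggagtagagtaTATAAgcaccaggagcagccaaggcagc

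The Il6 sequence held the NF-kB match GGGATTTTCC, from 44 to 35 bases before the start. It also held 1 match each to C/EBP (TTGTGCAA, 128 to 121 bases before the start), AP-1 (TGAGTCA, 249 to 243) and the cAMP response element core (ACGTCA, 136 to 131). No searched motifs overlapped one another. In the Il12b sequence the sole match was a TATAA from 28 to 24 bases before the start, which says only that the letters of the other motifs are not in this window. Among 32536 distinct RefSeq promoter sequences of the same length, 7.28% held the NF-kB motif, 9.57% the C/EBP motif, 6.73% the AP-1 motif, 6.50% the cAMP response element core and 22.7% TATAA. Both sequences were below the median of these promoters in GC content, with 42.8% at Il6 and 46% at Il12b against 52.4%. A GC content as low or lower was found in 18.9% of these promoters for Il6 and 28.2% for Il12b. Each held 3 CG pairs, against a median of 6, and 37.4% of the promoters held as few or fewer. These matches describe the letters only and show no binding.

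Peaks were present at 2 of the 4 genes in both untreated lists, Il10 and Il27, and at all 4 genes in both LPS lists. The windows held 3 peaks in untreated Wbp7+/- cells and 3 in untreated Wbp7-/- cells. After LPS they held 6 peaks in Wbp7+/- and 5 in Wbp7-/- cells. No window had a peak in 1 genotype only, in either treatment. Il6 and Il12b were the 2 genes with peaks after LPS in both genotypes and none without it. Over the genome, 329 of 13149 regions shared by the LPS lists (2.50%) had no untreated peak. Without the LPS-treated Wbp7+/- list, Il6 and Il12b were again the 2 windows with a peak after LPS alone. Where no peak is listed, the signal fell short of the caller's threshold, which does not show that the mark was missing.

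**Figure D1:**
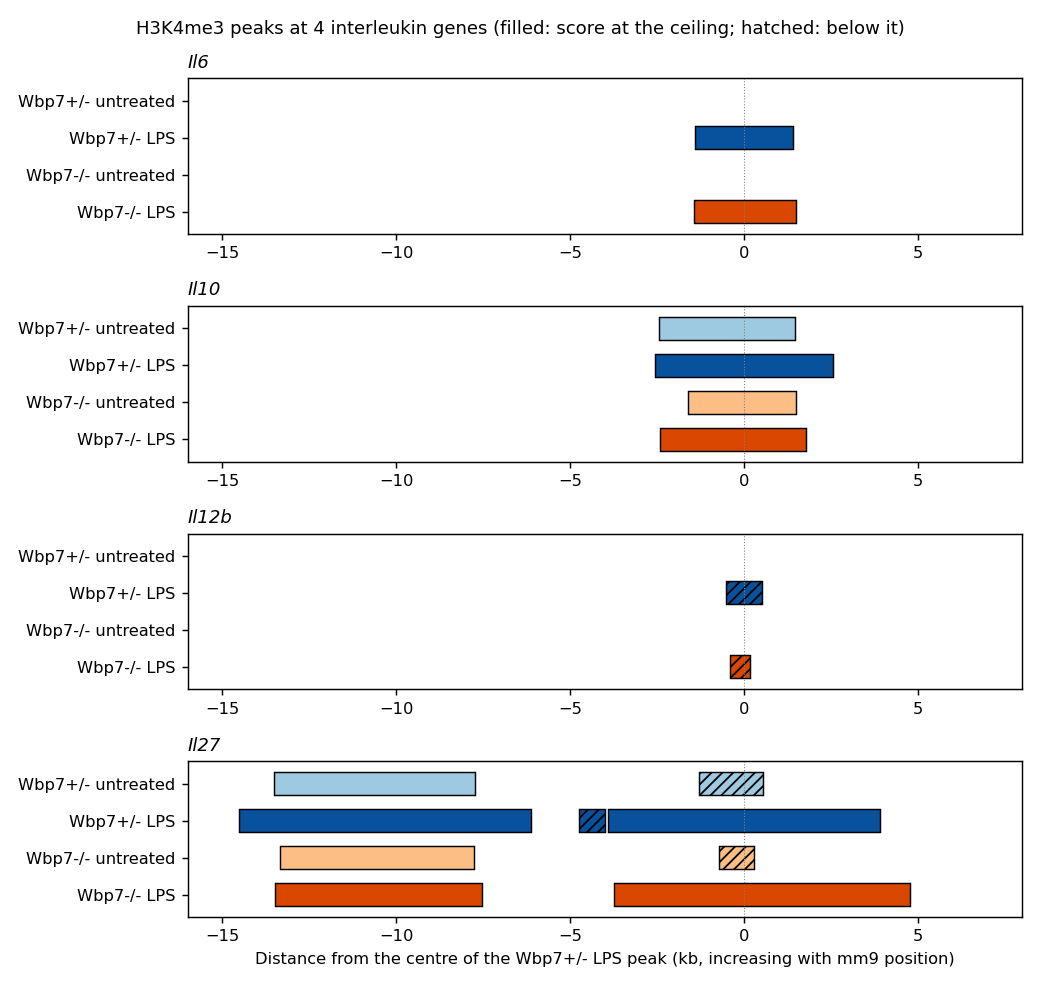
Peaks in the windows of Il6, Il10, Il12b and Il27 in the 4 lists, drawn to scale as bars along the distance in kb from the centre of the Wbp7+/- LPS peak (the highest-placed one at Il27). Filled bars are at the score ceiling of 3100 and hatched bars are below it. Il6 and Il12b have bars in the LPS lists only, and the bars near 0 kb at Il27 are 1853 and 998 bp untreated against 7808 and 8529 bp after LPS.

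The score of a peak is the one the authors deposited, which by the convention of the peak caller MACS grows as the peak's p-value falls. From 8950 to 9695 peaks per list stood at or above 3100, here called the ceiling and treated as 1 class. Scores and widths both depend on read depth, which is unknown, so each value is set beside the other peaks of its own list. The lists held 17316 peaks in untreated Wbp7+/- cells, 17313 in LPS-treated Wbp7+/- cells, 14599 in untreated Wbp7-/- cells and 15086 in LPS-treated Wbp7-/- cells. The median peak width was 1768, 1740, 2106 and 2026 bp in the same order.

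At Il6, neither untreated list had a peak, and both LPS lists had a strong one. In LPS-treated Wbp7+/- cells the peak ran from 30339573 to 30342399, a width of 2827 bp, with a score of 3100. In LPS-treated Wbp7-/- cells it ran from 30339556 to 30342479, a width of 2924 bp, again with a score of 3100. The Il6 peaks of the genotypes had nearly the same edges: the Wbp7-/- peak reached 17 bp further on the lower side and 80 bp further on the upper side. It covered the whole Wbp7+/- peak, and the Wbp7+/- peak covered 96.7% of it.

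In width the Il6 peak stood somewhat above the middle of the ceiling peaks. Within the Wbp7+/- LPS list 79.3% of all peaks and 63.3% of the ceiling peaks were narrower. In the Wbp7-/- LPS list these shares were 75.7% and 60.3%. Like the Il6 peak, 20 of 9480 ceiling peaks of LPS-treated Wbp7+/- cells had no untreated counterpart (0.211%, 95% Wilson interval 0.137 to 0.326). In Wbp7-/- cells 20 of 8950 had none (0.223%, 0.145 to 0.345). These intervals cover counting error over peaks only.

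No other peak lay close to the Il6 window. In untreated cells the nearest peaks were 270.3 kb below and 48.9 kb above the window in Wbp7+/-, and 270.2 and 48.3 kb away in Wbp7-/-. After LPS these distances were 269.7 and 48.9 kb in Wbp7+/- and 269.6 and 48.3 kb in Wbp7-/-. Within these distances the Il6 peak was the sole peak after LPS, and untreated cells had none. In the order of RefSeq genes, the protein-coding neighbours of Il6 are Dnajb6 and Tyms. RefSeq gives the Il6 gene a length of 6862 bp, and the wider of the LPS peaks measured 42.6% of that length.

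At Il12b, the untreated lists likewise had no peak, but the LPS peaks were narrow and weak. The peak of LPS-treated Wbp7+/- cells ran from 44213335 to 44214382, a width of 1048 bp, with a score of 124.48. That of LPS-treated Wbp7-/- cells ran from 44213461 to 44214031, a width of 571 bp, with a score of 92.79. The Wbp7-/- peak lay wholly inside the Wbp7+/- peak and covered 54.5% of it.

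Both Il12b peaks stood near the bottom of their lists. Only 15.2% of Wbp7+/- LPS peaks and 10.0% of Wbp7-/- LPS peaks scored lower. By width, 26.2% and 4.67% of the peaks were narrower. Weak peaks lacked an untreated counterpart more often than all peaks did. Of the Wbp7+/- LPS peaks, 16.9% of those scoring 100 to under 500 had none, and 43.8% of those under 100. The Wbp7+/- Il12b peak scored near the lower end of the 100 to 500 class. Of the Wbp7-/- LPS peaks scoring under 100, 46.0% had none. A score minimum of 100 removed the Wbp7-/- peak, and trimming all lists to the length of the shortest removed the Wbp7+/- peak, so that 1 window, Il6, was left with a peak in both LPS lists alone.

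Il12b was isolated too. The nearest peaks lay 629 to 648.2 kb below the window and 50.8 to 51.0 kb above it in the 4 lists. The Il12b gene is 14615 bp long in RefSeq, with Adra1b and Ublcp1 as protein-coding neighbours, and the wider peak measured 7.17% of that length. Il6 and Il12b thus had the same pattern of presence and were far apart in score.

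At Il27, both genotypes had a small peak without LPS, and after LPS a peak that was among the widest of its list. In untreated Wbp7+/- cells the peak ran from 133737440 to 133739292, a width of 1853 bp, with a score of 430.48. In untreated Wbp7-/- cells it ran from 133738025 to 133739022, a width of 998 bp, with a score of 52.81. The lowest score in that list was 50, and only 0.822% of its peaks scored lower than the Il27 peak. The untreated Il27 peak of Wbp7-/- cells was thus close to the limit of what was called.

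After LPS the Il27 peak of Wbp7+/- cells ran from 133734834 to 133742641, a width of 7808 bp, at the ceiling. In LPS-treated Wbp7-/- cells it ran from 133734989 to 133743517, a width of 8529 bp, again at the ceiling. It had spread on both sides: by 2606 bp below and 3349 bp above the untreated peak in Wbp7+/-, and by 3036 and 4495 bp in Wbp7-/-. The LPS peak exceeded the length of the Il27 gene, 6027 bp in RefSeq, in both genotypes.

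The LPS peak of Il27 was 4.21 times as wide as the untreated peak in Wbp7+/- cells and 8.55 times as wide in Wbp7-/- cells. With a score minimum of 100 the untreated Wbp7-/- peak dropped out, so the 8.55 has no value there, and the Il27 window then counted as occupied in that list through a peak at its edge alone. Among all 15284 regions shared by the Wbp7+/- lists, 639 (4.18%) were covered over at least 1.5 times the untreated length after LPS, and the median ratio was 0.983. In Wbp7-/- cells 454 of 13273 regions (3.42%) were, and the median ratio was 0.977. A ratio at least as high as that of Il27 was found at 12 regions in Wbp7+/- and at 2 in Wbp7-/- cells, Il27 included. Only 91 peaks of the Wbp7+/- LPS list and 53 of the Wbp7-/- LPS list were as wide as the Il27 peak or wider, Il27 included. Whether the ratios of the genotypes differ was not tested.

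**Figure D2:**
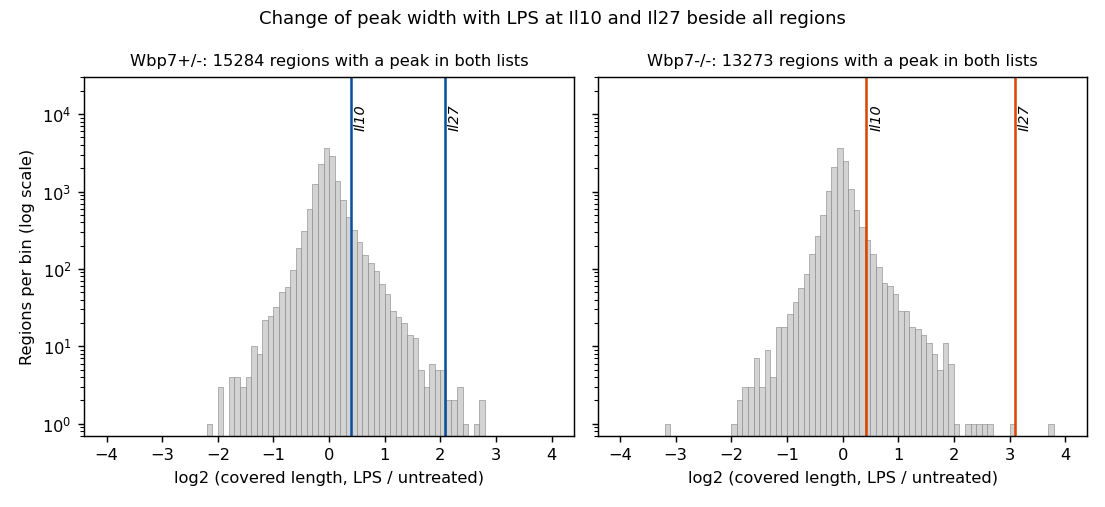
Distribution of the log2 ratio of covered length, LPS over untreated, over all regions shared by the lists of a genotype, with the count of regions on a log axis. The vertical lines mark the regions wholly inside the windows, at 0.39 for Il10 and 2.08 for Il27 in Wbp7+/- and at 0.43 and 3.10 in Wbp7-/- cells. The Il27 lines lie far to the right of the bulk of regions around 0. The Il10 lines lie in its right flank, with ratios at least as high at 7.86% and 5.62% of regions.

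A further peak overlapped the lower edge of the Il27 window, with most of its length outside. It was at the ceiling in all 4 lists. In Wbp7+/- cells it measured 5767 bp untreated and 8389 bp after LPS, and in Wbp7-/- cells 5573 and 5947 bp. From 17.2% to 30.9% of it lay inside the window, which makes it the member nearest to the rule's limit. The nearest peak left out ended 19.4 kb below the window in each list. In the order of RefSeq genes the protein-coding neighbours of Il27 are Apobr and Nupr1, and the gene of the edge peak was not identified here.

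In LPS-treated Wbp7+/- cells an additional peak, from 133733988 to 133734746, lay between the others, 759 bp wide with a score of 119.61. It had no counterpart in the other 3 lists. With it, peaks covered most of a stretch of 18436 bp from the edge peak to the end of the Il27 peak, broken by gaps of 1393 and 87 bp. In LPS-treated Wbp7-/- cells 1 gap of 3785 bp remained in a stretch of 18261 bp. Without LPS the gap was 6443 bp in Wbp7+/- cells and in Wbp7-/- cells it was 7066 bp. The distance between the edge peak and the Il27 peak was thus shorter after LPS in both genotypes.

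Counting LPS peaks without an untreated counterpart in the same genotype gave 3 of the 6 Wbp7+/- peaks in the windows, against 8.95% of all LPS peaks in that list, and 2 of the 5 Wbp7-/- peaks, against 8.60%. These were the peaks of Il6 and Il12b and, in Wbp7+/- cells, the small additional peak at Il27. Since the genes were chosen with these calls known, nothing is drawn from the contrast. In the reverse direction, every untreated peak in the windows lay wholly inside an LPS peak of its genotype. No genome-wide share for lying wholly inside is given here. Peaks without any overlap made up 7.47% of the untreated Wbp7+/- list and 6.48% of the untreated Wbp7-/- list. At the ceiling, where the Il10 peak and the edge peak of the Il27 window stood, these were 0 of 9695 and 0 of 9047. The main Il27 peaks scored lower. Without overlap were 12.1% of untreated Wbp7+/- peaks scoring 100 to under 500, and 46.6% of untreated Wbp7-/- peaks under 100. Having an LPS counterpart therefore does not set these genes apart.

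Il10 already had a strong peak without LPS. In untreated Wbp7+/- cells it ran from 132914690 to 132918593, a width of 3904 bp, and in untreated Wbp7-/- cells from 132915508 to 132918614, a width of 3107 bp. After LPS it ran from 132914575 to 132919679 in Wbp7+/- cells, a width of 5105 bp, and from 132914718 to 132918892 in Wbp7-/- cells, a width of 4175 bp. All 4 peaks stood at the ceiling, so the score does not order them.

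The Il10 peak was 1.31 times as wide after LPS in Wbp7+/- cells and 1.34 times in Wbp7-/- cells. Both ratios stayed under the 1.5-fold used above. Ratios at least as high were found at 7.86% of the regions shared by the Wbp7+/- lists and at 5.62% of those shared by the Wbp7-/- lists. The spread took different sides: 1086 of the added bases were above the untreated peak and 115 below it in Wbp7+/- cells, against 278 above and 790 below in Wbp7-/- cells. In Wbp7+/- cells treated with LPS the peak was nearly as long as the Il10 gene, 99.6% of its 5126 bp in RefSeq.

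Within its lists the Il10 peak was wide, though less so in untreated Wbp7-/- cells. Of all peaks, 92.4% were narrower in untreated and 96.4% in LPS-treated Wbp7+/- cells, and 78.6% and 91.7% in Wbp7-/- cells. Of the ceiling peaks, 86.5% and 93.6% were narrower in Wbp7+/- cells, and 66.3% and 86.2% in Wbp7-/- cells. Il10 has Il19 and Mapkapk2 as protein-coding neighbours. The nearest peak below the window was 273.7 to 296.6 kb away in 3 lists and 75.8 kb away in the LPS-treated Wbp7+/- list, and the nearest above was 52.0 to 53.7 kb away.

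**Figure D3:**
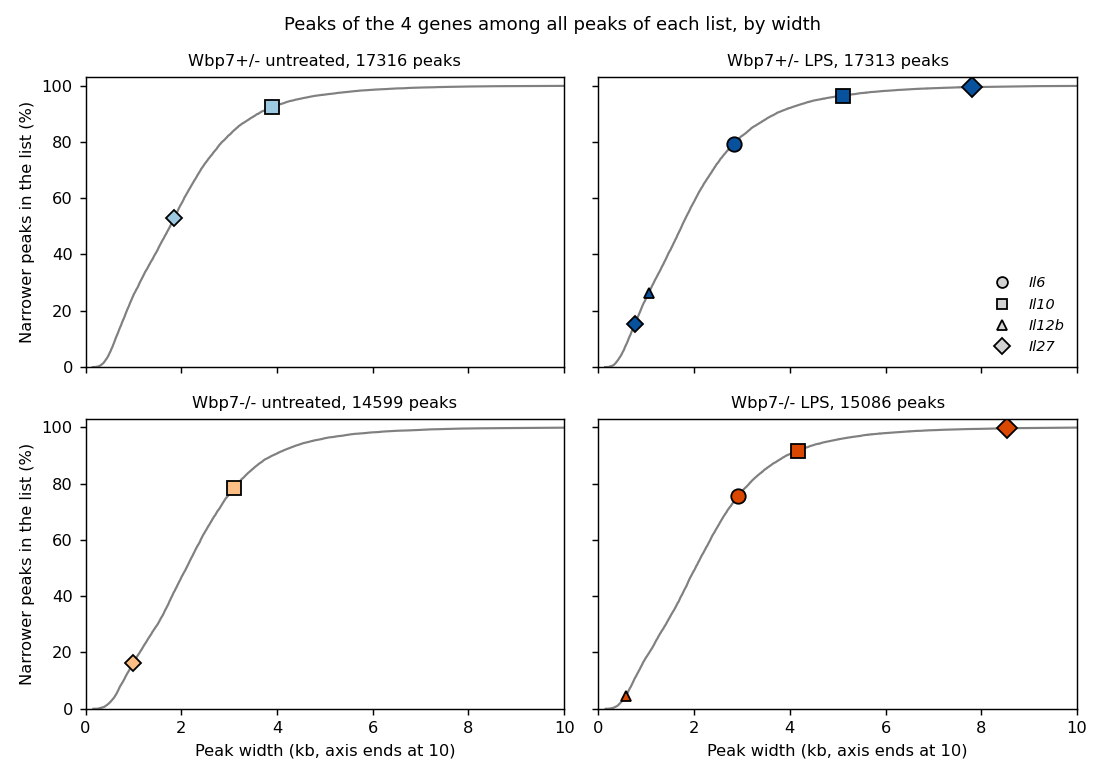
Peak width in kb against the share of narrower peaks in the same list in percent, with the grey curve for all peaks up to 10 kb and symbols for the peaks wholly inside the 4 windows (larger symbols are at the ceiling). In both LPS lists the order from narrow to wide is Il12b, Il6, Il10 and Il27, apart from the small additional Il27 peak in Wbp7+/- cells.

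Wbp7-/- cells had a peak at each gene where Wbp7+/- cells had one. For comparison, 19.7% of all Wbp7+/- peaks lacked a Wbp7-/- peak in untreated cells and 19.7% after LPS, while at the ceiling these shares were 0.722% and 0.865%. Of the single peaks in the windows, 1 of 6 in LPS-treated Wbp7+/- cells, the small additional peak at Il27, had no Wbp7-/- counterpart. Of the Wbp7+/- peaks scoring 100 to under 500 after LPS, as that peak did, 45.3% had none. In the other direction, all 3 untreated and all 5 LPS peaks of Wbp7-/- cells in the windows had a Wbp7+/- counterpart. Over all Wbp7-/- peaks, 6.93% and 8.00% lacked one. At the ceiling, where most of these members stood, 0 of 9047 and 1 of 8950 lacked one. The untreated Il27 main peak and the Il12b peak scored under 100, where 37.9% untreated and 39.0% after LPS lacked one. These counts therefore do not set the genes apart.

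Several of the Wbp7-/- peaks were narrower. Regions in both lists had a median ratio of Wbp7-/- over Wbp7+/- width of 1.03 in untreated cells and 1.03 after LPS. The share of these regions with as high a ratio or higher is given in brackets. At Il10 the ratio was 0.796 untreated (91.1%) and 0.818 after LPS (87.9%). At Il12b it was 0.545 after LPS (97.7%). At Il27 the main peak had a ratio of 0.539 untreated (98.4%) and 1.09 after LPS (34.1%). At the edge peak of the Il27 window the ratios were 0.966 (72.3%) and 0.709 (93.3%). At Il6 the ratio was 1.03 after LPS (49.4%). When each width was divided by the median width of its list, the LPS ratios above 1 turned, to 0.888 at Il6 and 0.938 at the main Il27 peak.

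A width lower by at least 1.5-fold in Wbp7-/- cells was seen at the untreated Il27 peak and the Il12b peak. Over the genome it was seen at 4.08% of regions in both untreated lists and 5.22% of those in both LPS lists. Both peaks scored far below the ceiling in Wbp7-/- cells, 52.81 and 92.79. At Il10, at the edge peak and, after LPS, at Il6 and Il27, the peaks of both genotypes stood at the ceiling. Their widths differed by less than 1.5-fold. Of all regions at the ceiling in both lists, 1.17% untreated and 1.11% after LPS were at least 1.5-fold wider in Wbp7-/- cells. At least 1.5-fold narrower were 0.397% and 0.627%. Staying under 1.5-fold therefore does not set these peaks apart. With widths divided by the list medians, the edge peak passed that limit after LPS, being 1.64 times as wide in Wbp7+/- cells. The Il10 ratio was then 0.668 untreated and 0.702 after LPS. As above, the list medians also depend on which peaks a list holds. With 1 library per group and unknown depths, genotype and depth cannot be told apart in these differences. After LPS, the uncertain treatment time of the Wbp7+/- library cannot be told apart from genotype either.

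**Figure D4:**
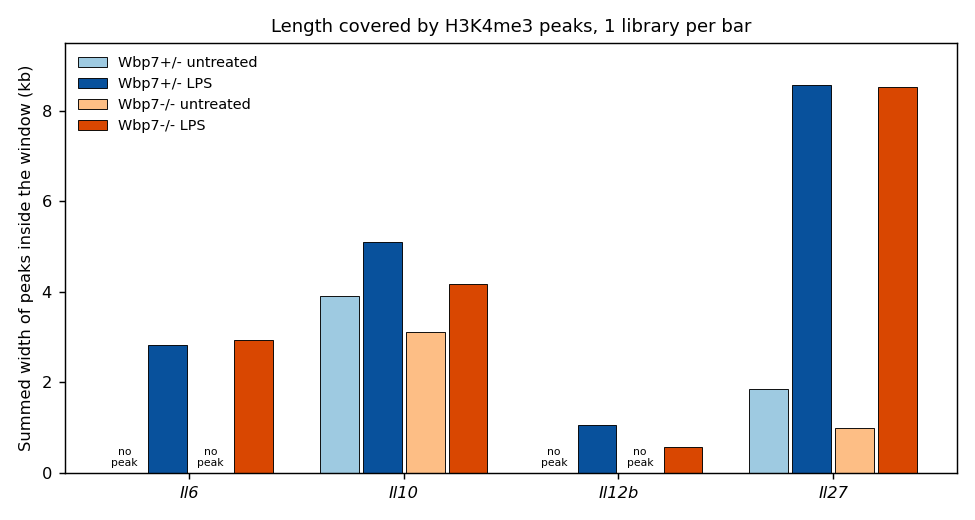
Summed width in kb of the peaks lying wholly inside each window, 1 bar per library, with the missing bars marked as no peak. At Il27 both LPS bars, 8567 and 8529 bp, stand above the untreated bars of 1853 and 998 bp, and at Il10 each LPS bar is above the untreated bar of its genotype.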

How the data were processed

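H3K4me3 ChIP-seq peaks came from 4 libraries of primary macrophages, 1 per genotype and treatment, grouped by their titles (HET or KO, UT or LPS), with the gene named as in the genotype label. Reads were aligned with Bowtie to mm9, per the submitters' processing notes, and peaks were called with MACS in each library separately, per the file headers, which also name an input. The sources used here give no versions, no threshold of the caller and no read numbers, so the depth is unknown. The authors deposited a start, an end and a score for each peak, and no score was changed. Peak positions are given in mm9, counted from 1.

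Peaks were counted in a window or as matched at an overlap of 1 bp or more. For background, the peaks of a pair of lists were joined where they overlapped, and covered lengths were compared at 1.5-fold. All 4 genes and all their peaks are reported. The genes, windows and comparisons were chosen with earlier results of these data known. The overlap counting was checked on a copy of the untreated Wbp7+/- list with peaks removed on purpose, and on a few made-up intervals. The planned wider lists of cytokine, receptor and cell marker genes were not analysed, since the gene table used is of GRCm38 and gives names, order and lengths only. Promoter sequences from RefSeq matched 2 of the 4 genes, Il6 and Il12b. Alternatives covered the overlap, score minimum, list length, window size, clipping, width scaling and joining of peaks. Python 3.11.15, numpy 2.4.6, scipy 1.17.1 and matplotlib 3.10.9 were used.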

Additional observations from a re-analysis of the deposited data

Results flagged for a closer look

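The main Il27 region differed between the genotypes in opposite directions in the treatments. The covered length of Wbp7-/- cells minus that of Wbp7+/- cells was -855 bp untreated and 721 bp after LPS. The difference between these was not tested, since each group had 1 library. After LPS, genotype also cannot be told apart from treatment time, which is uncertain for the Wbp7+/- library. With the small additional peak of Wbp7+/- cells added, the peaks wholly inside the window summed to 8567 bp after LPS in Wbp7+/- cells, above the 8529 bp of Wbp7-/- cells, and the opposite directions were gone. They were also gone with widths divided by the median width of each list. The ratio of Wbp7-/- over Wbp7+/- for the main peak was then 0.452 untreated and 0.938 after LPS. That median also depends on which peaks a list holds, so this scaling does not settle the direction.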

How the results depend on the processing

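Of 176 alternative values, 164 kept their direction and stayed within 1.5 times the reported value, 10 moved further and 2 turned. Many of the 164 could not change, such as the Il10 ratios, which only width scaling altered. Small counts could also fall within that limit. In LPS-treated Wbp7+/- cells the windows with a peak fell from 4 to 3, and their peaks from 6 to 4, with lists of equal length. The 164 is therefore no measure of stability. When widths were divided by the median width of their list, 2 ratios of Wbp7-/- over Wbp7+/- width after LPS turned. They went from 1.03 to 0.888 at Il6 and from 1.09 to 0.938 at the main Il27 peak. That median also depends on which peaks a list holds. At Il27 the window includes the edge peak, and summed over the whole window the LPS over untreated ratio was 2.23 in Wbp7+/- and 2.20 in Wbp7-/- cells. It was 4.62 and 8.55 with at least 50% of a peak inside the window or with peaks wholly inside, and 3.92 and 4.97 with peaks clipped to the window. The ratio of Wbp7-/- over Wbp7+/- length in untreated cells moved from 0.862 to 0.539 with at least 50% of a peak inside or with peaks wholly inside. By construction these settings leave out or cut the edge peak. Windows with a peak in both LPS lists alone fell from 2 to 1 with a score of at least 100 and to 1 with lists of equal length, which dropped peaks under 128.25 in LPS-treated Wbp7+/- cells. The settings for single Il27 peaks, for peaks wholly inside the window and for that last count were chosen after seeing the data. The Il12b ratio had no value with a score of at least 100, with peaks at or above the median score or with lists of equal length, since a peak was then missing. With a score of at least 100, neither did the main Il27 peak's ratios that use untreated Wbp7-/- cells. No paired analysis was possible because each group holds 1 library with no replicate number in the labels, and no result comes from a test.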

Other observations

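Outside the windows, the nearest peak above Il10 was wider in both LPS lists than in the untreated ones, a feature chosen after its values were seen. It measured 1422 bp with a score of 335.02 in untreated and 6360 bp with a score of 1764.29 in LPS-treated Wbp7+/- cells. In Wbp7-/- cells the values were 1134 bp with 207.43 and 5962 bp with 980.5. The nearest peak above the Il27 window was also wider after LPS, at 4144 bp against 1803 bp in Wbp7+/- and 3715 bp against 2447 bp in Wbp7-/- cells. At Il6 the nearest peak above the window was 1603 bp wide without and 1593 bp with LPS in Wbp7+/- cells and 2331 and 2195 bp wide in Wbp7-/- cells. The nearest peak below Il6 was 3432 and 4051 bp wide in Wbp7+/- and 3561 and 4267 bp wide in Wbp7-/- cells. Above Il12b the nearest peak was 2360 and 2429 bp wide in Wbp7+/- and 2538 and 2731 bp wide in Wbp7-/- cells. Below Il12b the widths were 522 and 456 bp, and 1673 and 1667 bp. Below Il27 they were 1975 and 2299 bp, and 2071 and 2157 bp. Below Il10 they were 1042 and 927 bp in Wbp7-/- cells, while the Wbp7+/- lists had different nearest peaks there. Of all regions in both lists, 4.18% in Wbp7+/- and 3.42% in Wbp7-/- cells were covered over at least 1.5 times the untreated length after LPS. The genes of these peaks were not identified here.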
